A study of Mus musculus with 6 samples.

Results

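Alternative exons are chosen largely by proteins that bind the pre-mRNA near them and help or hinder the spliceosome. Epithelial and mesenchymal cells use different sets of these proteins. Esrp1, Esrp2 and Rbm47 are known for favouring epithelial exons, whereas Rbfox2, Qk, Celf2 and the muscleblind proteins Mbnl1, Mbnl2 and Mbnl3 are known for exons of mesenchymal, muscle or differentiated cells, and Ptbp1 is a widely expressed repressor of exons. The RNA of these 10 regulators was compared on 6 Affymetrix MoGene-1_0-st arrays, on which several short probes together read a transcript and yield 1 log2 signal. The members were taken by symbol: all 10 were measured, with 12 probe sets of the 11288 that carry exactly 1 symbol, and 10 genes of 10261. Qk had 3 probe sets and the other members 1 each. A gene with several was represented by the brightest. These signals sum over the transcript, so they give no level of an isoform or exon.

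The samples were 3 arrays with the label keratinocytes and 3 with the label MEFs. The keratinocytes were primary cells from the back skin of newborn mice at postnatal day 0, grown in a keratinocyte medium with supplements. The MEFs, or mouse embryonic fibroblasts, came from E13.5 embryos freed of head and inner organs and were grown in serum. No treatment was applied to either. The methods name C57BL/6J for the MEFs, the isolation protocol in the labels names DR-4 as the strain wanted, and no strain is named for the keratinocytes. Each group was numbered as biological replicates 1 to 3, but nothing tells how many animals stand behind a replicate. The groups differ in tissue, age and medium together, and these cannot be told apart.

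The arrays ran against their labels. Cdh1, the epithelial adhesion gene, had log2 signals of 3.33, 2.16 and 3.26 on the keratinocyte-labelled arrays and of 8.62, 8.59 and 8.73 on the MEF-labelled ones. Vim, which encodes the mesenchymal filament protein vimentin, had 11.93, 11.97 and 12.03 against 3.81, 3.92 and 3.78. Of 7 keratinocyte markers, 7 were higher on the MEF-labelled arrays, and of 7 fibroblast markers, 7 were higher on the keratinocyte-labelled ones. All directions below are therefore those of the arrays as labelled. Background was set per array at the 95th percentile of the 10 probe sets named for olfactory receptors, which was 5.49 to 5.92 on the keratinocyte-labelled arrays and 6.05 to 6.58 on the MEF-labelled ones. With only 10 probe sets, this level is set by the brightest few of them and is imprecise. It is also high. On MEF-labelled replicates 1 and 3 it was 6.53 and 6.58, above the medians of these arrays, 6.25 and 6.31. A signal under background therefore does not show that RNA was absent. All statements about background below, and the bounds on folds, depend on this level, which was higher on the MEF-labelled arrays. Where a group lay under background on each of its arrays, a fold is a lower bound, written as at least.

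Esrp1, Esrp2, Rbm47 and Mbnl3 were higher on the MEF-labelled arrays, where Cdh1 was high. Celf2, Rbfox2, Mbnl2 and Mbnl1 were higher on the keratinocyte-labelled arrays, where Vim was high. Qk and Ptbp1 passed in neither direction. Differences were tested with limma and called at an adjusted p under 0.05 over all 11288 probe sets. The 4 and 4 calls among 10 members stand beside 41.7% of all genes higher on the MEF-labelled arrays and 32.9% higher on the keratinocyte-labelled ones, so these shares are near the background and are no result about the members. All genes means the 10261 with 1 symbol in the deposited values, which do not cover every mouse gene. Calls in either direction were 8 of 10, against 74.5% of all genes. Groups did not overlap for 8 of the 10 members and for 78.4% of all genes. The median absolute log2 difference as measured was 1.53 over the members and 0.57 over all genes. With genes under background set to their bound, and to 0 where no bound exists, it was 0.50 and 0.26. The median signed difference was -0.19 over the members and -0.12 over all genes as measured, and -0.08 and 0 at the bounds. At a log2 difference of at least 1, an added criterion, 4 members were higher on the MEF-labelled arrays and 1 on the keratinocyte-labelled ones, against 14.4% and 14.1% of all genes. Of these 5, Esrp1, Esrp2 and Mbnl3 have a fold or a bound on it, and Rbm47 and Celf2 have none. In RNA of whole cultures, fewer cells of a type and less RNA per cell cannot be told apart.

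**Figure D1:**
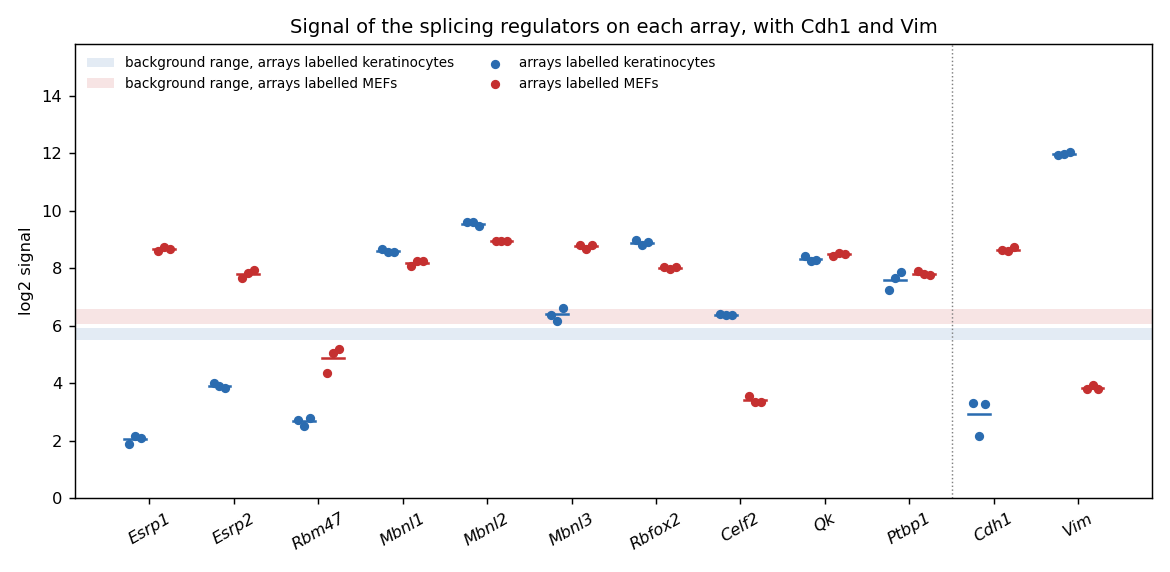
Log2 signal (vertical axis) of the 10 splicing regulators, and of Cdh1 and Vim right of the dotted line, with each point an array, each short line the mean of 3 arrays, blue for keratinocyte-labelled arrays and red for MEF-labelled arrays. The bands give the range of the olfactory receptor background in each group: Esrp1 and Esrp2 cross it in the direction of Cdh1, Rbm47 stays under it, and Mbnl3 lies above its own group's band on all 6 arrays.

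Esrp1 encodes an RNA-binding protein of epithelia that favours the epithelial exon of the growth factor receptor gene Fgfr2. Its log2 signals were 1.88, 2.17 and 2.09 on the keratinocyte-labelled arrays and 8.58, 8.72 and 8.68 on the MEF-labelled ones. The former lay far under background and the latter above it. Esrp1 was at least 7.78-fold higher on the MEF-labelled arrays, with a log2 difference as measured of -6.61 ± 0.10 (SE, n = 3 and 3; adjusted p = 2.50e-09 from limma).
Its paralog Esrp2, which acts on many of the same exons, had log2 signals of 4.01, 3.89 and 3.82 on the keratinocyte-labelled arrays and of 7.66, 7.83 and 7.93 on the MEF-labelled ones. It too was under background on the former and above it on the latter. Esrp2 was at least 4.30-fold higher on the MEF-labelled arrays (log2 difference -3.90 ± 0.11, SE; adjusted p = 1.46e-08 from limma). The difference in log2 signal between Esrp1 and Esrp2 on the same array shifted by -2.71 ± 0.15 (SE) from the MEF-labelled arrays to the keratinocyte-labelled ones, without overlap of the groups. This and the other pairs of paralogs below were chosen after their values were seen and carry no test. The SE of a pair comes from its own arrays alone, whereas the SE of a single gene is that of limma. Since Esrp1 and Esrp2 both lay under background on the keratinocyte-labelled arrays, the size of their shift is not a ratio of transcripts.
Rbm47, an RNA-binding protein also known for stabilising transcripts and for RNA editing, gave 2.73, 2.52 and 2.77 on the keratinocyte-labelled arrays and 4.35, 5.05 and 5.19 on the MEF-labelled ones. The groups did not overlap and the test passed (log2 difference -2.19 ± 0.21, SE; adjusted p = 2.34e-05 from limma). No array was above background, as for 26.8% of all genes, so no fold is given. The SD among the MEF-labelled arrays was 0.45, against a median of 0.11 over all genes, with replicate 1 the lowest.

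Muscleblind proteins bind RNA through zinc fingers of the CCCH type, promote the splicing of differentiated tissue and are known for being trapped by expanded CUG repeats in myotonic dystrophy. Mbnl1 and Mbnl2 are widely expressed, and Mbnl3 is known from placenta and from muscle precursors. On these arrays Mbnl3 went the other way from its paralogs.
Mbnl3 had log2 signals of 6.38, 6.18 and 6.63 on the keratinocyte-labelled arrays and of 8.80, 8.66 and 8.82 on the MEF-labelled ones. The lowest of the latter was about 2 log2 units above the highest of the former. It was 5.13-fold higher on the MEF-labelled arrays, with both groups above background (log2 difference -2.36 ± 0.13, SE; adjusted p = 6.95e-07 from limma).
Mbnl1 had 8.65, 8.56 and 8.56 against 8.06, 8.25 and 8.23. The groups were close but did not overlap, and Mbnl1 was 1.33-fold higher on the keratinocyte-labelled arrays (log2 difference 0.41 ± 0.09, SE; adjusted p = 4.36e-03 from limma). Mbnl2 had 9.60, 9.60 and 9.46 against 8.96, 8.95 and 8.96, a nearly constant level within the MEF-labelled arrays, and was 1.51-fold higher on the keratinocyte-labelled ones (log2 difference 0.60 ± 0.09, SE; adjusted p = 3.13e-04 from limma). The differences of Mbnl1 and Mbnl2 were exceeded in size by the differences as measured of 62.8% and 47.9% of all genes.
A shift in log2 signal that is equal for both paralogs on an array cancels in their difference. Array effects that differ between probe sets do not cancel. Mbnl3 minus Mbnl1 shifted by -2.77 ± 0.17 (SE) and Mbnl3 minus Mbnl2 by -2.96 ± 0.18 (SE). For Mbnl1 minus Mbnl2 the shift was -0.19 ± 0.08 (SE). The groups overlapped in none of these 3 pairs, and for single genes they did not overlap in 78.4% of all genes. For Mbnl1 minus Mbnl2 they nearly touched, at -0.908 on keratinocyte-labelled replicate 3 and -0.901 on MEF-labelled replicate 1.

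**Figure D2:**
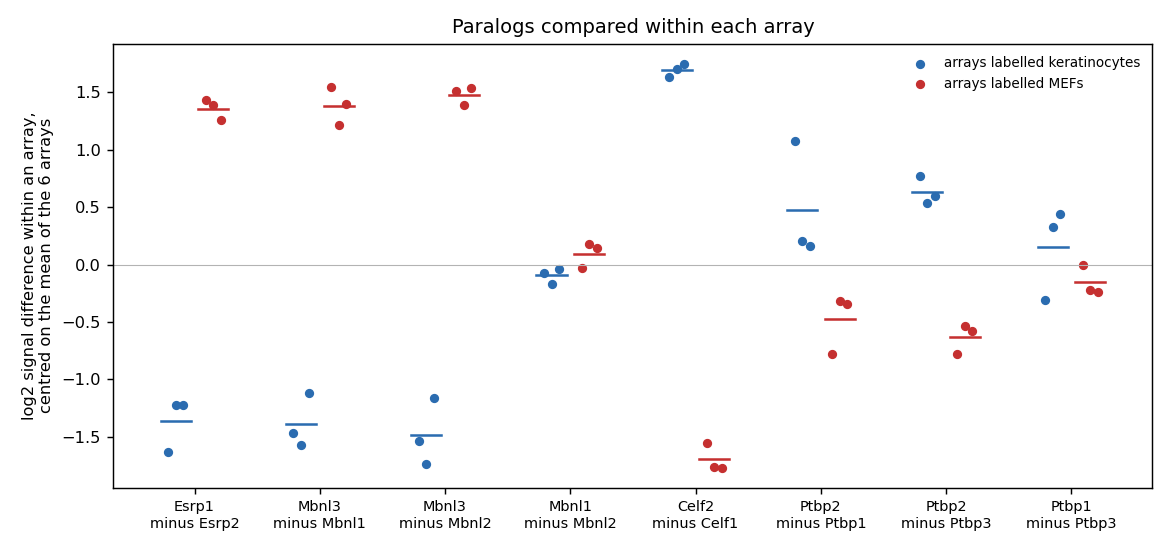
Difference in log2 signal between 2 paralogs on the same array (vertical axis), centred on the mean of the 6 arrays for each of 8 pairs, with each point an array, each line the mean of 3 arrays, blue for keratinocyte-labelled arrays and red for MEF-labelled arrays. The heights show shifts between groups only: the pairs with Mbnl3 shift by -2.77 and -2.96, and Celf2 minus Celf1 by 3.39. Ptbp1 minus Ptbp3 overlaps through keratinocyte-labelled replicate 1 only.

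The stretches just before the transcription starts of the muscleblind genes are shown because these paralogs moved in opposite directions. They are from the RefSeq annotation of GRCm38.p6, 250 bases before a start and written 5′ to 3′ on the strand of the gene. Capitals mark a GC box, the letters GGGCGG on either strand, which the activator Sp1 is known to bind.
Mbnl1 (chr3:60500929-60501178, plus strand): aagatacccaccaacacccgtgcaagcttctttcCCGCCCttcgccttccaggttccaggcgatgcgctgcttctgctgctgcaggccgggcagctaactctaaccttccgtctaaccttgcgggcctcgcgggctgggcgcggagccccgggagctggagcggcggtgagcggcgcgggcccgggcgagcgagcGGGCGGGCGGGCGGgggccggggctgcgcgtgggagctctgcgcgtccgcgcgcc
Mbnl2 (chr14:120275419-120275668, plus strand): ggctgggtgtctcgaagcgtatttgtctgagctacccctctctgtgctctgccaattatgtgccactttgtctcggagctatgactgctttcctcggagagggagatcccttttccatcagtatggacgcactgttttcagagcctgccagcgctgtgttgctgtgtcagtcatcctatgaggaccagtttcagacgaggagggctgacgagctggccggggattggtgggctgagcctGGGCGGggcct
Mbnl3 (chrX:51205991-51206240, minus strand): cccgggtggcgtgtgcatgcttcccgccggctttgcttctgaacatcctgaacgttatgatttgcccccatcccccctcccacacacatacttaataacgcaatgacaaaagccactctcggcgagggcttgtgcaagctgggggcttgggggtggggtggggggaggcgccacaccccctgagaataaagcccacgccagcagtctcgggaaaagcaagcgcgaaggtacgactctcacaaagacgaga
The Mbnl1 window holds 4 GC boxes, overlapping ones counted singly, at 73.6% G and C. The Mbnl2 window holds 1 at 57.2%, and the Mbnl3 window 0 at 59.2%, where the median of all windows was 52.4%. A further start of Mbnl1, at chr3:60472580-60472829, has 0 GC boxes. Over the members, 14 such windows of 7 genes were found, of which 6 hold a GC box, against 32.7% of the 32851 windows of all genes. The letters CACCTG on either strand, an E-box that the repressors Zeb1 and Snai1 are known to bind, are in 0 of the 14 windows and in 17.2% of all. These matches describe the letters of the windows only. Which start the cells used was not measured. Esrp1, Esrp2 and Rbfox2 were not searched.

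Rbfox2 encodes a protein that binds GCAUG in introns and is known for exons used by mesenchymal cells. It had log2 signals of 8.97, 8.82 and 8.90 on the keratinocyte-labelled arrays and of 8.04, 7.97 and 8.04 on the MEF-labelled ones. The groups stood apart by several times their spread. Rbfox2 was 1.84-fold higher on the keratinocyte-labelled arrays (log2 difference 0.88 ± 0.09, SE; adjusted p = 3.31e-05 from limma), and it was above background on all 6 arrays.
Celf2, which binds GU-rich RNA and can oppose the muscleblind proteins, had log2 signals of 6.39, 6.38 and 6.38 on the keratinocyte-labelled arrays and of 3.56, 3.36 and 3.34 on the MEF-labelled ones. The first group was above the background of its own arrays and the second under it. The log2 difference as measured was 2.97 ± 0.09 (SE; adjusted p = 3.19e-08 from limma), a size that depends on signals under background. No fold is given, because the mean signal on the keratinocyte-labelled arrays was no higher than the mean background of the MEF-labelled ones. These means were nearly equal, and the signals were above the background of MEF-labelled replicate 2, which was 6.05. Celf2 is known from muscle, neurons and lymphocytes. Markers of muscle, neurons and immune cells are given beside it, and none of the immune markers that were measured marks lymphocytes. Of 5 skeletal muscle markers 3 were measured, and 2 of them, Acta1 and Des, were higher on the keratinocyte-labelled arrays, where Acta1 was above background on 3 arrays and Des on 1. Their summed linear signal was 163 to 261 there and 58.8 to 66.8 on the MEF-labelled arrays. Of 6 neural markers 2 were measured and 1, Map2, was higher on the keratinocyte-labelled arrays but above background on no array, with sums of 114 to 128 against 95.7 to 122. Of 5 immune markers 2 were measured, Lyz2 higher on the keratinocyte-labelled arrays, with 1 above background, and Cd68 on the MEF-labelled ones, with sums of 48.0 to 75.3 against 349 to 414. The part of such cells in the Celf2 result was not tested.
Its paralog Celf1, a regulator of splicing and mRNA decay, went the other way, with log2 signals of 8.63, 8.55 and 8.51 against 8.98, 8.99 and 8.98, and was 1.34-fold higher on the MEF-labelled arrays (adjusted p = 2.04e-03 from limma). Celf2 minus Celf1 on the same array shifted by 3.39 ± 0.08 (SE), a size that rests on Celf2 signals under background.

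Qk encodes the RNA-binding protein quaking, a regulator of exons and circular RNAs in mesenchymal and glial cells. Its brightest probe set had log2 signals of 8.42, 8.24 and 8.30 on the keratinocyte-labelled arrays and of 8.42, 8.54 and 8.50 on the MEF-labelled ones. The highest of the former equalled the lowest of the latter to 2 decimals, and the test did not pass (log2 difference -0.17, 95% interval -0.38 to 0.04; adjusted p = 0.128 from limma). Of its other probe sets, 1 had 6.91, 7.04 and 6.77 against 6.98, 6.58 and 6.65, with a log2 difference of 0.17 (95% interval -0.13 to 0.47; adjusted p = 0.263 from limma). The remaining one was above background on no array and had a log2 difference of 0.20 (adjusted p = 0.208 from limma). The probe sets thus differ in sign, with every interval including 0, and the mean of the 3 gave 0.07 in place of -0.17.
Ptbp1 encodes the polypyrimidine tract binding protein, which represses many exons. It had log2 signals of 7.25, 7.66 and 7.85 on the keratinocyte-labelled arrays and of 7.89, 7.78 and 7.76 on the MEF-labelled ones. The groups overlapped, and keratinocyte-labelled replicate 1 was the lowest. The log2 difference was -0.22 (95% interval -0.57 to 0.13; adjusted p = 0.213 from limma), and without that array it was -0.05. The SD of Ptbp1 among the keratinocyte-labelled arrays was 0.31, against a median of 0.14 over all genes.
Its paralogs passed in opposite directions. Ptbp2, known as the neuronal form, had 7.59, 7.13 and 7.28 on the keratinocyte-labelled arrays against 6.38, 6.73 and 6.68, where 2 of 3 arrays were above background, and was 1.66-fold higher on the former (adjusted p = 2.04e-03 from limma). Ptbp3 had 9.19, 8.96 and 9.05 against 9.53, 9.63 and 9.62 and was 1.44-fold higher on the MEF-labelled arrays (adjusted p = 1.23e-03 from limma). On the same array Ptbp2 minus Ptbp3 shifted by 1.26 ± 0.10 (SE) and Ptbp2 minus Ptbp1 by 0.96 ± 0.33 (SE), without overlap. Ptbp1 minus Ptbp3 shifted by 0.31 ± 0.24 (SE) and overlapped. Keratinocyte-labelled replicate 1, the array with the lowest Ptbp1, weighs on both pairs with Ptbp1. Ptbp1 minus Ptbp3 was -1.94 on it, against -1.30 and -1.19 on replicates 2 and 3 and -1.63, -1.85 and -1.87 on the MEF-labelled arrays. Ptbp2 minus Ptbp1 was 0.34 on it, against -0.53 and -0.58 on replicates 2 and 3.

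**Figure D3:**
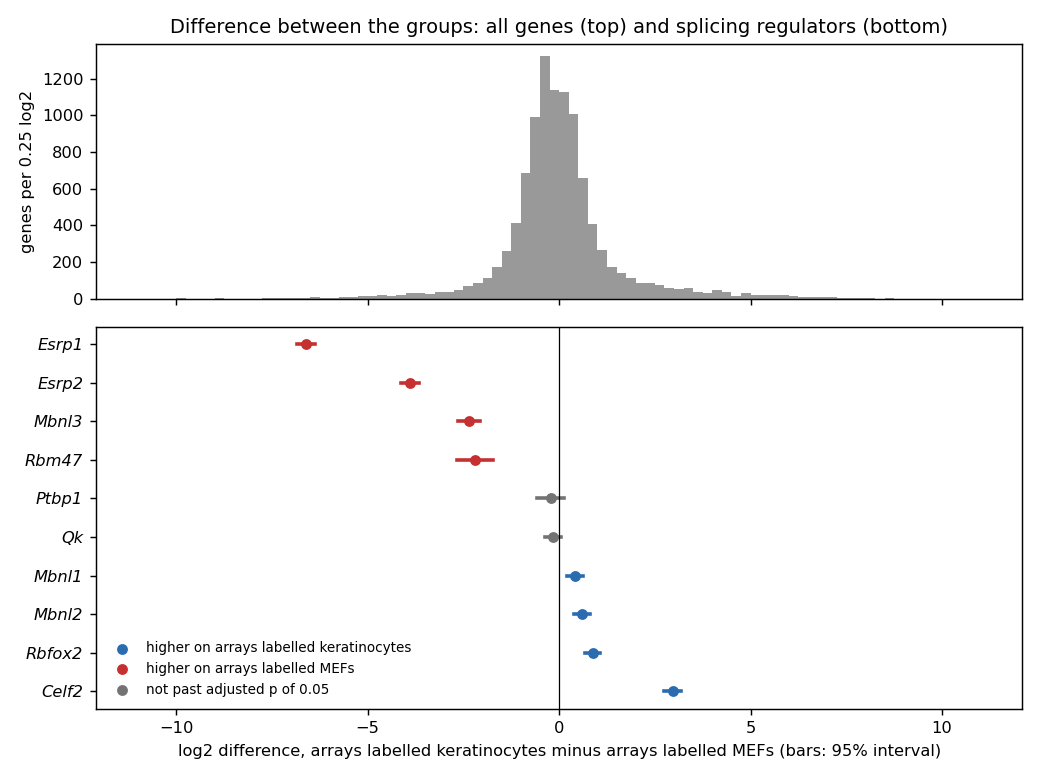
Log2 difference, keratinocyte-labelled arrays minus MEF-labelled arrays (horizontal axis of both panels), as a count of all 10261 genes per bin of 0.25 (top) and for each of the 10 splicing regulators with its 95% interval from limma (bottom), coloured by call. The regulators run from Esrp1 at -6.61 to Celf2 at 2.97, both as measured with the lower group under background, and the intervals of Ptbp1 and Qk include 0.

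A wider list of 41 related splicing regulators held 21 measured genes: paralogs and partners of the members and other sequence-specific RNA-binding proteins. Of these, 8 were higher on the keratinocyte-labelled arrays, 5 on the MEF-labelled ones and 8 did not pass. Of all genes 32.9% and 41.7% were called in these directions and 74.5% in either, so that the 13 calls among 21 are no excess over the background. Their median log2 difference was -0.06, against -0.12 over all genes, and 0 for both at the bounds.
In the first direction, Khdrbs3, a STAR-family protein like Qk, had 6.21, 6.20 and 6.24 against 2.97, 3.06 and 2.91 (adjusted p = 1.37e-08 from limma). As for Celf2, the MEF-labelled arrays were under background and the bound came to less than 1, so no fold is given. The proteins of the Musashi genes are known as translation regulators of progenitor cells. Msi1 was above background on no array, with means of 5.20 ± 0.17 and 3.26 ± 0.03 (SD, n = 3; adjusted p = 8.20e-07 from limma). Msi2 was 2.51-fold higher on the keratinocyte-labelled arrays, with 1 of 3 MEF-labelled arrays above background (adjusted p = 1.19e-05 from limma), and Tial1, a U-rich RNA binder, was 1.91-fold higher, with 2 of 3 above it (adjusted p = 1.95e-05 from limma).
In the other direction the differences were small. Rbm38, a regulator of splicing and mRNA stability, was at least 1.29-fold higher on the MEF-labelled arrays, with 1 of 3 arrays above background (adjusted p = 2.40e-03 from limma). Ptbp3 and Celf1 have been described, and Celf4 was above background on no array, with 4.09 ± 0.22 against 4.52 ± 0.29 (SD, n = 3; adjusted p = 0.0439 from limma). The exon activator Tra2b was the fifth (adjusted p = 0.0338 from limma). Its dimmer probe set did not pass (adjusted p = 0.113 from limma). Without MEF-labelled replicate 2, or with the arrays centred on their medians, Celf4 and Tra2b did not pass and the 5 became 3. Neither passed with the replicate number as a block, without keratinocyte-labelled replicate 2 or with the methods' t-test. Celf4 also failed with trend and robust eBayes and with all probe sets. Tra2b also failed with quantile normalization and with probe set means. Both calls are thus unstable, and similar counts under other settings can hold other genes.

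Exons known to respond to these regulators lie in genes whose total level was measured here, without the exons. Of 18 such genes 16 were measured, 10 were higher on the MEF-labelled arrays, 2 on the keratinocyte-labelled ones and 4 did not pass. Of all genes 41.7% and 32.9% were called in these directions and 74.5% in either, so the share called in either direction is near the background. The median log2 difference of the 16 was -0.43, against -0.12 over all genes.
Itga6, the laminin-binding integrin chain of hemidesmosomes, had the largest difference, with 6.50, 6.48 and 6.72 on the keratinocyte-labelled arrays and 11.40, 11.37 and 11.36 on the MEF-labelled ones, and was 28.1-fold higher on the latter (adjusted p = 3.63e-09 from limma). The lipid-binding protein gene Osbpl3 was 2.69-fold higher there (adjusted p = 1.63e-06 from limma). Fgfr2, the classical target of the Esrp proteins, had 7.32, 7.34 and 7.25 against 8.28, 8.34 and 8.24 and was 1.98-fold higher on the MEF-labelled arrays (adjusted p = 1.40e-05 from limma). Both groups were thus above background for Fgfr2, and whether they used its epithelial or mesenchymal exon was not measured. Nf2, the merlin tumour suppressor gene, was 1.96-fold higher on the MEF-labelled arrays (adjusted p = 1.77e-05 from limma).
The genes higher on the keratinocyte-labelled arrays were Tcf7l2, a factor of Wnt signalling, at least 1.88-fold (adjusted p = 2.73e-06 from limma), and Enah, an actin regulator with an exon used in epithelia, 1.25-fold (adjusted p = 0.0136 from limma). At a log2 difference of at least 1, Itga6 and Osbpl3 remained higher on the MEF-labelled arrays and Tcf7l2 on the keratinocyte-labelled ones. Of all genes 14.4% and 14.1% were called in these directions, so these counts are no excess over the background.

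**Figure D4:**
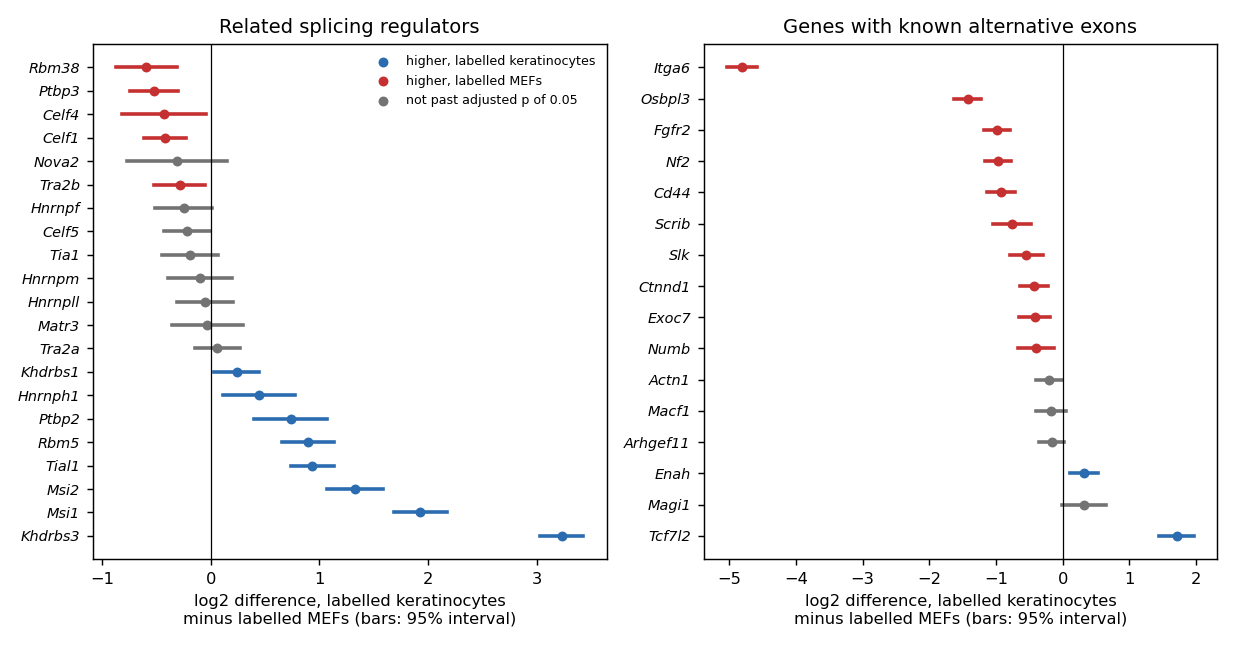
Log2 difference, keratinocyte-labelled arrays minus MEF-labelled arrays (horizontal axis), with its 95% interval from limma for 21 related splicing regulators (left) and 16 genes with known alternative exons (right), blue and red for calls in each direction and grey for none. Khdrbs3, under background on the MEF-labelled arrays, lies farthest right on the left panel, and Itga6 farthest left on the right panel at -4.81.

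The genes whose 6 signals ran closest to those of a member were found by the distance between their log2 profiles, each centred on its own mean, which measures likeness over 2 groups of 3 arrays only. For Esrp1 and Celf2 and all genes named here, the lower group lay under background, so the distances rest in part on such signals and the order among close genes is uncertain. Closest to Esrp1 were Col17a1, the hemidesmosomal collagen gene, at a distance of 0.30, Prl8a9, of the prolactin family, at 0.34 and Klra8, of a receptor family of natural killer cells, at 0.38. The last 2 belong to multigene families of close copies, so that their probes may read relatives. Col17a1 was at least 25.3-fold higher on the MEF-labelled arrays (adjusted p = 3.79e-09 from limma), Prl8a9 at least 4.98-fold (adjusted p = 2.58e-09 from limma) and Klra8 at least 2.97-fold (adjusted p = 7.55e-09 from limma). Closest to Celf2 were the stress-related gene Niban1 at 0.09, the dioxin receptor gene Ahr at 0.16 and the serotonin receptor gene Htr1b at 0.18. They were at least 2.43-fold, 2.53-fold and 4.85-fold higher on the keratinocyte-labelled arrays (adjusted p = 2.21e-08, 2.43e-08 and 4.22e-08 from limma).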

How the data were processed

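Total RNA was hybridised to 6 arrays. For 15648 probe sets, log2 values were deposited by the authors, whose methods state RMA normalization with oligo (version 1.46.0 per the labels). That these values are the RMA output was inferred from their range. RMA corrects background, brings the probes of the arrays to one distribution and summarises them. The deposited array medians were 6.16 to 6.31, and signals under background keep differences that have no fold. Of the probe sets, 11288 had 1 symbol in the platform's table (645 several, 3715 no entry) and 11274 of these were matched by gene identifier to RefSeq symbols of GRCm38.p6. They entered lmFit and eBayes of limma 3.58.1 (R 4.3.3) without a block, with Benjamini-Hochberg adjustment. The test was tried on simulated independent noise with 200 of 11288 probe sets changed. It recovered 88% of log2 differences of 1 and 100% of those of 2, with 2.08% of calls false. Far fewer probe sets were changed there than were called in the data, so the simulation does not check the calls made here. Named were the members, up to 4 genes per list and direction, minority calls, and the 3 nearest genes to the extreme members. Members and lists were chosen with earlier results of these data known, and the paralog pairs, Ptbp2 and Tra2b after the values were seen. As alternatives served a block for the replicate number, each array left out in turn, scaling, filters, other variance models, the methods' t-test, probe set means, all probe sets and, added later, a minimum difference. Figures used matplotlib 3.10.9 (Python 3.11.15). Precision is limited by the number of arrays. The p-values of limma rest on the spread between them and, through eBayes, on the spread of all probe sets tested. An exact permutation test gave p = 0.1 for every called member, the smallest value possible for 3 against 3 arrays.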

Additional observations from a re-analysis of the deposited data

How the results depend on the processing

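Under the 15 alternatives, and wherever a member was still tested, the 8 calls among the members were kept and Qk and Ptbp1 did not pass. Rbm47 was left out by both filters on dim probe sets and Celf2 by the one on the dimmest 25%, which gave 3 and 3 calls there. The log2 difference of Qk turned to 0.068 with the mean of its probe sets, and the probe sets themselves differ in sign. With 1 array left out, 4 members were called in each direction each time, and the log2 difference was between -0.35 and -0.05 for Ptbp1, the latter without keratinocyte-labelled replicate 1. With a minimum log2 difference of 1, chosen after seeing the data, the calls on the keratinocyte-labelled and MEF-labelled arrays were 1 and 4 members, 3 and 0 related regulators, 1 and 2 genes with known alternative exons, and 1442 and 1476 of all genes. Related regulators higher on the MEF-labelled arrays numbered 3 with median centring, 3 with probe sets above background on 3 arrays only and 3 to 6 with 1 array left out (3 without MEF-labelled replicate 2).
With the replicate number as a block they numbered 3, all genes called were 3117 and 3942 in place of 3371 and 4278, and 4 members were called in each direction. Deviations of same-numbered arrays from their group means correlated at -0.23, -0.21 and -0.03, so the numbers were not taken as pairs. For differently numbered arrays the correlations ran from -0.03 to 0.21. The highest were for keratinocyte-labelled replicate 2 with MEF-labelled replicate 1 and for keratinocyte-labelled replicate 1 with MEF-labelled replicate 2. An effect shared by arrays of unlike number was not tested. Adding vomeronasal and trace amine receptors to the background was not run, since 0 of their probe sets were named. Depth of signal limits Esrp1, Esrp2, Rbm47 and Celf2, which lay under background in one group or both.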
